A study of Mus musculus with 12 samples.

Results

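Tumors treated with chloroquine alone were set directly against tumors treated with ADI-PEG20 alone, 6 of the 12 libraries in the series. The members were taken from the treatment label, which put 3 libraries in each drug group. All tumors came from 1 murine sarcoma line, BVMA01R, of the genotype Myf5-Cre;p53-/-;Ass1-/-, sampled as tumor tissue from female C57BL/6J mice, so every group carries both deletions and the Cre, which is driven by a gene of the early muscle lineage. The chloroquine group and the ADI-PEG20 group received 1 drug each. Untreated tumors and tumors given ADI-PEG20 with chloroquine, 3 libraries each, appear as levels beside the comparison and also enter the fit, where they add to the estimate of the spread between libraries. Doses, schedules, tumor sites and the age of the mice are not given in the sources used here. Nor do the labels tie libraries to animals, so p-values measure the spread between these libraries, which may be technical.

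The 2 drugs act on different steps of nutrient supply. ADI-PEG20 is arginine deiminase joined to polyethylene glycol, an enzyme that removes arginine from the blood, and cells without argininosuccinate synthase, the product of Ass1, cannot rebuild arginine from citrulline. Starved cells activate the kinase GCN2 and the transcription factor ATF4, which induces amino acid transporters and enzymes of amino acid synthesis. Chloroquine is a weak base that collects in lysosomes, raises their pH and blocks the last step of autophagy, by which cells recycle their own proteins. A direct contrast of the drugs asks where tumors under arginine removal and tumors under lysosomal block differ, which comparisons with untreated tumors do not test.

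Values are given as CPM, the reads of a gene scaled to a common effective library size, and differences as chloroquine minus ADI-PEG20 on the log2 scale with their standard error (SE). The chloroquine libraries held 19256008, 21088129 and 20153593 reads, and the ADI-PEG20 libraries 16188928, 28410940 and 21909984. Library ADI-PEG20 1 stood apart: 22.8% of its reads fell on the noncoding RNA Gm26917, against 5.09% to 16.4% in the other 11, and 120 genes had no read there. On the first principal component of the 6 libraries, with 39.8% of the variance, it lay at 90.4 and the other 5 between -33.8 and 4.05. On the second, with 24.7%, chloroquine 1 and 2 lay at 47.8 and 38.6, while chloroquine 3, at -16.6, lay among the ADI-PEG20 libraries at -6.29, -13.2 and -50.3. The drug label accounted for 19.1% of the variance between the 6 libraries. Averaged over every split of the 6 libraries into 3 and 3, a label accounts for slightly more than this, whatever the data. The drug label therefore did not exceed the mean of such splits, and its share is not read as a drug effect. The shares of single other splits were not computed.

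**Figure D1:**
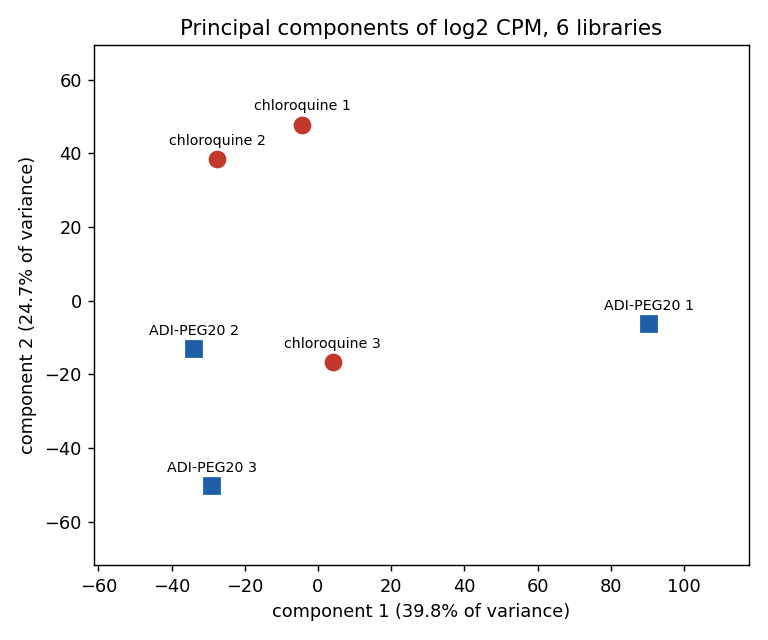
Scores of the 6 libraries on the first and second principal components of log2 CPM over 16335 genes, with chloroquine as circles and ADI-PEG20 as squares. Component 1 separates ADI-PEG20 1 from the other 5 libraries, and chloroquine 3 lies with the ADI-PEG20 libraries on component 2.

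Ass1 gave 11.3, 11.7 and 18.8 CPM in chloroquine tumors and 16.4, 12.7 and 8.97 CPM in ADI-PEG20 tumors, against 6.83, 9.39 and 10.3 CPM in untreated tumors. Trp53 gave 18.0, 21.2 and 25.4 CPM in chloroquine tumors and 26.8, 24.2 and 26.8 CPM in ADI-PEG20 tumors. Both genes overlapped between the drugs. Counts over a whole gene do not show whether the deleted part was read, and the host cells of a tumor are not deleted.

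No gene separated the drugs after correction. Of 16335 genes tested with limma, 0 (0%) had a Benjamini-Hochberg adjusted p under 0.05, and the smallest adjusted p was 0.994. At an unadjusted p under 0.05 there were 604 genes (3.7%), fewer than the 817 that make 5% of the genes tested. Of these, 262 (1.6%) were higher and 342 (2.09%) lower with chloroquine. The 3 chloroquine libraries lay wholly above the 3 ADI-PEG20 libraries in 618 genes (3.78%) and wholly below in 609 (3.73%), together 1227 genes (7.51%). The median difference over all genes was 0.00327, 50.5% of genes were above 0 and 49.5% below, and the median SE was 0.264. With 3 libraries a drug, the exact two-sided permutation test of a single gene cannot go below p = 0.1. The genes below are therefore described by their values and by whether the groups overlap, and none of them is called different.

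The authors' deposited table of the same contrast also holds 0 genes at an adjusted p under 0.05, with 1089 at an unadjusted p under 0.05 and a smallest adjusted p of 0.644. Over genes, the log2 fold changes in the authors' deposited table and the differences given here had a Pearson r of 0.887, as a description, since both come from the same libraries. With voom and library quality weights, a fit added after the data were seen, that r was 0.999.

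Among the genes lower with chloroquine, Lpl had the smallest p. It encodes lipoprotein lipase, which frees fatty acids from circulating lipoproteins (ENSMUSG00000015568, chromosome 8, 68880491 to 68907448, GRCm38). Lpl had 11.6, 9.23 and 19.2 CPM in chloroquine tumors, against 62.4, 30.7 and 51.6 CPM in ADI-PEG20 tumors. The highest chloroquine library lay below the lowest ADI-PEG20 library, and the untreated tumors, at 17.7, 12.2 and 25.2 CPM, overlapped with chloroquine. The difference was -1.86 (SE 0.33, limma unadjusted p = 8.17e-05, adjusted p = 0.994). The authors' deposited table gives -1.81 for it, with an adjusted p of 0.644.

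The arginine transporter Slc7a3, a cationic amino acid carrier of the plasma membrane, was another of the 12 lower genes with the smallest p (ENSMUSG00000031297, chromosome X, 101079210 to 101086020). It had 9.24, 5.13 and 13.9 CPM in chloroquine tumors, against 18.9, 45.5 and 33.0 CPM in ADI-PEG20 tumors, a difference of -1.81 (SE 0.47). Untreated tumors had 3.48, 6.94 and 7.33 CPM and tumors given both drugs 18.6, 53.6 and 44.0 CPM. The chloroquine libraries overlapped with the untreated ones, and every library with ADI-PEG20, alone or combined, lay above all 6 libraries without it.

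Avil, which encodes the actin-binding protein advillin, had 1.98, 2.94 and 2.55 CPM in chloroquine tumors, against 9.53, 12.8 and 8.45 CPM in ADI-PEG20 tumors. Tinagl1, a secreted matrix protein gene, had 11.7, 11.6 and 32.4 CPM in chloroquine tumors, against 43.8, 33.8 and 59.8 CPM in ADI-PEG20 tumors. The differences were -2.03 (SE 0.46) for Avil and -1.44 (SE 0.36) for Tinagl1. In neither gene did the groups overlap, although chloroquine 3 came close to the lowest ADI-PEG20 library for Tinagl1. The adenylate kinase gene Ak5 had 3.47, 6.29 and 8.32 CPM in chloroquine tumors, against 13.7, 11.2 and 15.7 CPM in ADI-PEG20 tumors, and Pianp 1.07, 0.979 and 1.52 CPM against 4.61, 3.74 and 4.61 CPM in the same order.

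Genes of phagocytes, redox control and respiration were also among the 12 lower ones. Fcgr3, an activating Fc receptor of macrophages and neutrophils, had 32.0, 40.6 and 40.5 CPM in chloroquine tumors, against 53.9, 55.8 and 65.8 CPM in ADI-PEG20 tumors. Gpnmb, a membrane glycoprotein of phagocytes and melanocytes, had 15.2, 11.5 and 15.5 CPM in chloroquine tumors, against 23.3, 24.7 and 22.7 CPM in ADI-PEG20 tumors. Both sets of 3 lay apart, by -0.64 (SE 0.16) and -0.76 (SE 0.21). Glrx, the gene of glutaredoxin, which reduces protein disulfides with glutathione, had 6.14, 6.85 and 6.31 CPM in chloroquine tumors, against 9.45, 10.2 and 11.1 CPM in ADI-PEG20 tumors. Cox7a2l, a factor of respiratory supercomplex assembly, had 50.8, 56.4 and 47.2 CPM in chloroquine tumors, against 70.9, 119 and 73.5 CPM in ADI-PEG20 tumors. Lnx1, which encodes a ubiquitin ligase, rested on few reads: 0.374, 0.186 and 0.196 CPM in chloroquine tumors, against 1.43, 1.47 and 0.827 CPM in ADI-PEG20 tumors. Its difference of -2.22 came to -0.83 on the log2(CPM + 1) scale, which damps low values.

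The 12 genes higher with chloroquine were mixed in function, and Depdc1b, Kif22 and Plk1 among them act in cell division. Depdc1b, which acts in the detachment of cells entering mitosis (ENSMUSG00000021697, chromosome 13, 108316332 to 108407782), had 5.23, 4.61 and 4.21 CPM in chloroquine tumors, against 1.43, 2.27 and 1.70 CPM in ADI-PEG20 tumors. Kif22, a chromosome-binding kinesin, had 32.1, 28.8 and 27.2 CPM in chloroquine tumors, against 13.8, 20.6 and 17.0 CPM in ADI-PEG20 tumors. Plk1, the kinase that drives mitotic entry and spindle assembly, had 47.6, 41.9 and 37.7 CPM in chloroquine tumors, against 23.8, 34.5 and 22 CPM in ADI-PEG20 tumors. The groups lay apart in all 3 genes, by 1.39 (SE 0.30), 0.79 (SE 0.18) and 0.68 (SE 0.19). For Depdc1b and Plk1 the ADI-PEG20 libraries were also below all 3 untreated libraries, which had 5.51, 4.67 and 5.04 CPM for Depdc1b and 38.4, 35.5 and 36.7 CPM for Plk1. Ccdc8, a member of a complex that guards microtubules, had 28.9, 34.0 and 24.1 CPM in chloroquine tumors, against 15.6, 14.3 and 12 CPM in ADI-PEG20 tumors.

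Tmsb10, which encodes an actin-sequestering thymosin, had 553, 513 and 504 CPM in chloroquine tumors, against 330.5, 289 and 229.7 CPM in ADI-PEG20 tumors. Gm3788 stood beside it with 48.2, 45.3 and 63.6 CPM in chloroquine tumors, against 30.2, 24.9 and 15.4 CPM in ADI-PEG20 tumors. Gm3788 is a processed pseudogene: 85 of the 106 stretches of 31 bases in its 136-base transcript (80.2%) also occur in Tmsb10 transcripts. Reads within those stretches cannot be told from reads of Tmsb10, so the pair is counted as 1 observation. Where the reads came from was not tested.

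Tnc, the gene of the matrix protein tenascin-C, had 3211, 3408 and 2516 CPM in chloroquine tumors, against 1916, 1804 and 1636 CPM in ADI-PEG20 tumors and 4262, 3685 and 2600.5 CPM in untreated tumors. Cdh2, the gene of N-cadherin, had 142, 125 and 106 CPM in chloroquine tumors, against 75.7, 83.7 and 55.7 CPM in ADI-PEG20 tumors. Both lay apart between the drugs, by 0.76 (SE 0.21) and 0.81 (SE 0.21). Mest, an imprinted gene of embryonic mesoderm, had 182, 121 and 99.0 CPM in chloroquine tumors, against 84.0, 52.1 and 68.7 CPM in ADI-PEG20 tumors, and Plekha8, a lipid transfer protein gene of the Golgi, 18.0, 14.5 and 15.7 CPM against 10.2, 8.15 and 9.49 CPM. Sytl2, a vesicle-docking protein gene, was the only one of the 24 whose groups overlapped, with 54.9, 49.1 and 29.6 CPM in chloroquine tumors and 13.1, 31.2 and 12.8 CPM in ADI-PEG20 tumors. The 24 were picked by p from these same libraries, so their lying apart follows largely from the selection. Of all genes, 7.51% lay apart. Il23r, an interleukin receptor gene, had 2.03, 1.21 and 2.10 CPM in chloroquine tumors, against 0.477, 0.511 and 0.174 CPM in ADI-PEG20 tumors. Its lowest library held 4 reads, and its difference of 2.22 came to 0.996 on the log2(CPM + 1) scale.

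**Figure D2:**
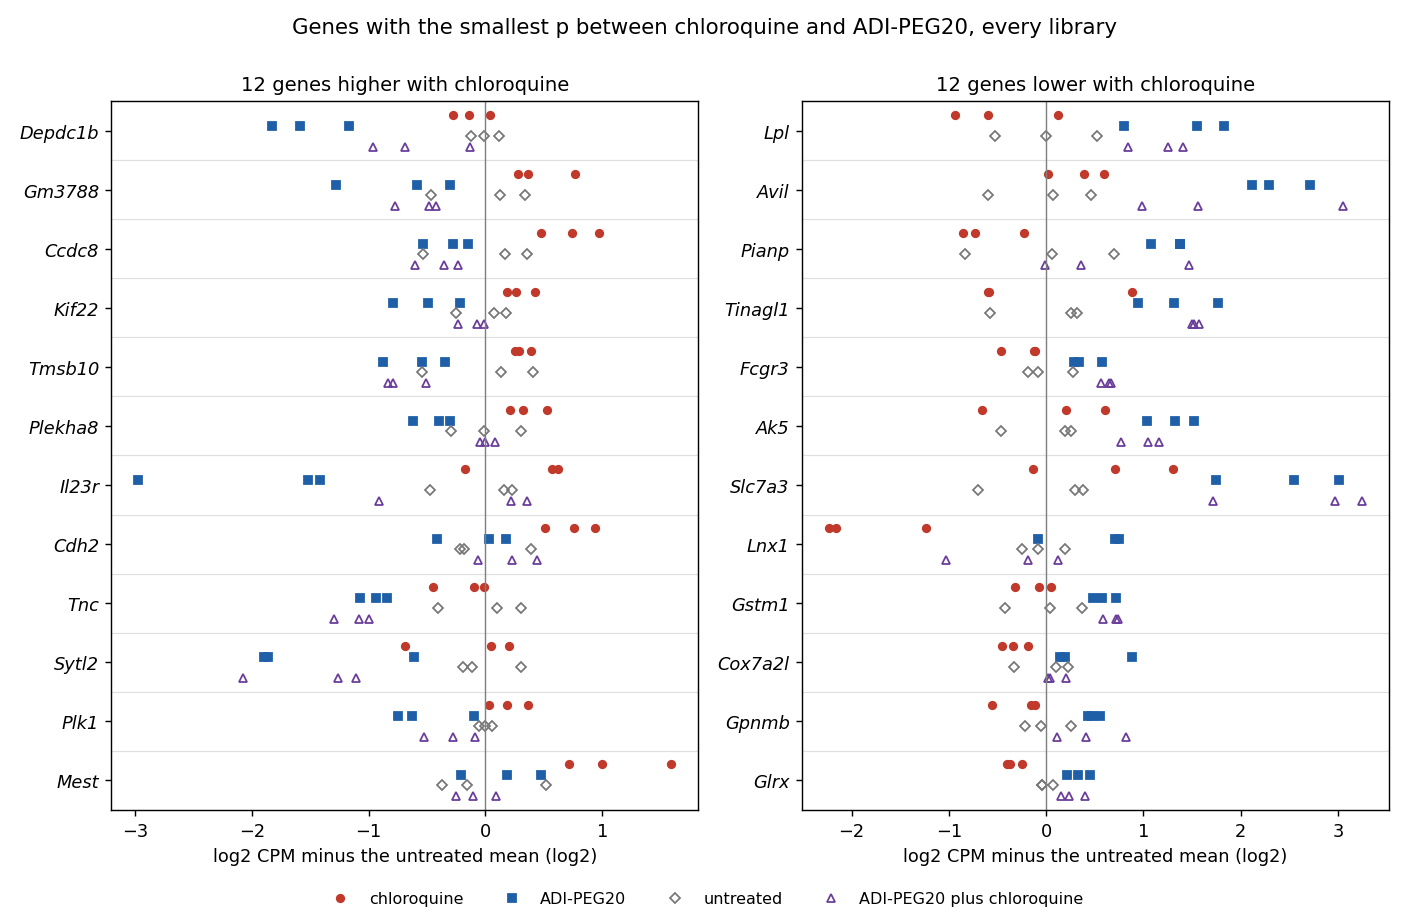
Log2 CPM of each library minus the untreated mean for the 12 genes higher (left) and the 12 lower (right) with chloroquine, ordered by p, with chloroquine as circles, ADI-PEG20 as squares, untreated as open diamonds and the combination as open triangles. The circles and squares of a gene do not overlap except for Sytl2, and combination tumors lie nearer the squares for all 12 lower genes. The genes were picked by p between circles and squares, so their separation follows largely from the selection.

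The untreated and combination means are no part of the difference between the drugs, but their libraries helped set the spread and so the p-values, and their place between the drugs is given as a description. Of the 604 genes with an unadjusted p under 0.05, the untreated mean lay nearer chloroquine in 439 and nearer ADI-PEG20 in 165 (27.3%), where over all genes 40.2% lay nearer ADI-PEG20. The combination mean lay nearer ADI-PEG20 in 425 of the 604 (70.4%), against 50.4% of all genes. With ADI-PEG20 1 left out of the drug means, a reading added after the data were seen, these shares were 29.3% for untreated and 77.8% for the combination, against 43.2% and 63.6% of all genes. Among the 12 named lower genes the untreated mean was nearer chloroquine for 10 and the combination mean nearer ADI-PEG20 for 12. Among the 12 named higher genes these counts were 9 and 9.

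Arginine supply was read next. Cationic amino acid transporters carry arginine across membranes, and 12 of the 13 listed were in the table. Of these, 4 were higher and 8 lower with chloroquine, with a median of -0.07 beside 0.00 over all genes. The median ran from -0.0303 without chloroquine 2 to -0.205 without ADI-PEG20 1. Slc7a3, described above, was the 1 member apart, where 3.73% of all genes lay apart below. Slc7a1, the widely expressed arginine transporter, had 99.7, 89.8 and 89.1 CPM in chloroquine tumors and 85.1, 106 and 109 CPM in ADI-PEG20 tumors, which overlapped. The 17 measured enzymes that make or use arginine had a median of 0.07, with no member apart.

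Neutral amino acid and cystine transporters had a median of -0.04, or 0.0117 with total reads as library size, with 10 of 16 lower with chloroquine. The glutamine carrier Slc1a5 had 66.5, 58.1 and 78.8 CPM in chloroquine tumors, against 136, 83.1 and 78.8 CPM in ADI-PEG20 tumors, the high value being that of ADI-PEG20 1. Its difference of -0.52 came to -0.27 without that library. Slc7a11, the cystine carrier, had 9.72, 10.8 and 12.1 CPM in chloroquine tumors and 7.86, 18.8 and 29.4 CPM in ADI-PEG20 tumors, so ADI-PEG20 1 lay below the chloroquine libraries and the other 2 above. The neutral amino acid carrier Slc43a1 ran the other way: the authors' deposited table gives 1.53 for it, with an adjusted p of 0.672. At a limma unadjusted p under 0.05 the list had 1 member higher and 1 lower with chloroquine. No member of the list lay apart above, where 3.78% of all genes did, and 1 lay apart below, where 3.73% did.

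Of 32 measured genes of the ATF4 response, 22 were lower and 10 higher with chloroquine, and the median difference was -0.08. It ran from -0.0398 without ADI-PEG20 3 to -0.13 without chloroquine 3. The mean log2 CPM of the list was 5.33, 5.34 and 5.47 in chloroquine tumors, against 5.48, 5.48 and 5.53 in ADI-PEG20 tumors and 4.92, 5.49 and 5.31 in untreated tumors. The drug groups did not overlap, and chloroquine 3 lay just below ADI-PEG20 2. Atf4 itself had 242, 246 and 204 CPM in chloroquine tumors and 204, 231 and 237 CPM in ADI-PEG20 tumors. Cth, which makes cysteine from cystathionine, had 4.43, 4.85 and 9.35 CPM in chloroquine tumors and 6.83, 22 and 26.6 CPM in ADI-PEG20 tumors, where ADI-PEG20 1 overlapped with chloroquine 3. Its difference was -1.43 (SE 0.52, limma unadjusted p = 0.0161, adjusted p = 0.994), and it was -2.38 without those 2 libraries. Trib3, a pseudokinase that feeds back on ATF4, had 14.6, 18.9 and 18.0 CPM in chloroquine tumors, against 22.5, 20.9 and 37.4 CPM in ADI-PEG20 tumors. Its groups lay apart by -0.61 (SE 0.49, limma unadjusted p = 0.235), and by -0.35 without ADI-PEG20 3. Trib3 was the only 1 of the 32 members apart, where 3.73% of all genes lay apart below.

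The Trib3 window below is shown because its gene is a known ATF4 target and because it holds a match to the core letters of the amino acid response element. RefSeq windows run from 250 bases before to 50 bases after the start of a gene, on GRCm38.p6, and print 5′ to 3′ on the gene's strand. Capitals mark TGATGNAA, read on either strand. It occurred in 12 of the 26 ATF4 list members with a window, against 2.78% of the 11296 genes of the table with one.
Trib3 (chr2:152344011-152344310, minus strand): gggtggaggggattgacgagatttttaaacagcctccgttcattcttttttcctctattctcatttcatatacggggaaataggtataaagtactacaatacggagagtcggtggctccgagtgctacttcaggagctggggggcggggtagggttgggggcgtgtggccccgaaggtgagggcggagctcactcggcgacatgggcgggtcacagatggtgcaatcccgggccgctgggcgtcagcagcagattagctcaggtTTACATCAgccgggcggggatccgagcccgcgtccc

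Serine, one-carbon and proline synthesis, another branch induced by ATF4, had 13 of 18 members lower with chloroquine and a median of -0.14, which was -0.0828 without ADI-PEG20 2. Phgdh, the first enzyme of serine synthesis, had 146, 131 and 121 CPM in chloroquine tumors and 127, 221 and 197 CPM in ADI-PEG20 tumors, with ADI-PEG20 1 inside the chloroquine range. The mean log2 CPM of this list was 5.25, 5.19 and 5.1 in chloroquine tumors, against 5.27, 5.41 and 5.32 in ADI-PEG20 tumors. The list means of the 2 drugs did not overlap, although 0 of the 18 single members lay apart.

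The compartment that chloroquine acts on showed small differences between the drugs. Of 39 genes of lysosomal hydrolases and membrane proteins, 31 were lower with chloroquine and 8 higher, with a median of -0.13. The median was -0.0338 without ADI-PEG20 3 and -0.22 without ADI-PEG20 2. Lamp1, a major protein of the lysosomal membrane, had 557, 498 and 485 CPM in chloroquine tumors and 587, 539.8 and 625 CPM in ADI-PEG20 tumors, and the groups overlapped. The 18 subunits of the vacuolar proton pump, which acidifies lysosomes, had a median of 0.00, with 9 higher and 9 lower. In chloroquine 3 and ADI-PEG20 3 the lysosomal list averaged 6.64 and 6.83 on the log2 CPM scale, above the other libraries of each drug. The library numbered 3 was also the highest of the untreated and of the combination tumors, at 6.55 and 6.80.

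Autophagy genes had a median of -0.05, or 0.00668 with total reads as library size, with 23 of 38 lower with chloroquine. Sqstm1, the autophagy receptor p62, had 285, 249.5 and 351 CPM in chloroquine tumors, against 359, 411 and 422 CPM in ADI-PEG20 tumors and 324, 414 and 295 CPM in untreated tumors. Wipi2, which recruits the lipid conjugation machinery to forming autophagosomes, had 69.6, 74.5 and 75.8 CPM in chloroquine tumors, against 95.7, 87.7 and 93.3 CPM in ADI-PEG20 tumors. Both were lower with chloroquine without overlap, by -0.44 (SE 0.19) and -0.33 (SE 0.15). In this direction 3 of 38 members lay apart, where 3.73% of all genes did. Map1lc3b, the gene of the autophagosome protein LC3B, had 97.3, 86.0 and 81.6 CPM in chloroquine tumors and 101, 80.9 and 116 CPM in ADI-PEG20 tumors. These are transcript levels and say nothing of autophagic flux.

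Genes of the NRF2 and glutathione system, which detoxify oxidants, were lower with chloroquine in 20 of 22. The median was -0.28, or -0.166 without ADI-PEG20 3. Of the members, 3 lay apart below, where 3.73% of all genes did. On the log2 CPM scale the list averaged 5.95, 6.075 and 6.19 in chloroquine tumors and 6.02, 6.51 and 6.61 in ADI-PEG20 tumors. The drug groups overlapped, with ADI-PEG20 1 inside the chloroquine range. Gstm1, a glutathione transferase from a family of close paralogs, had 24.1, 28.5 and 31.2 CPM in chloroquine tumors, against 49.6, 44.7 and 42.1 CPM in ADI-PEG20 tumors. Gclm, the modifier subunit of the enzyme that starts glutathione synthesis, had 42.2, 47.7 and 50.1 CPM in chloroquine tumors, against 68.9, 57.7 and 56.9 CPM in ADI-PEG20 tumors. Their differences were -0.71 (SE 0.19) and -0.39 (SE 0.15). Nqo1, a quinone reductase, had 8.92, 5.92 and 14.0 CPM in chloroquine tumors and 7.62, 26.7 and 37.3 CPM in ADI-PEG20 tumors, so that ADI-PEG20 1 lay within the chloroquine range. Without that library the difference of Nqo1 was -1.80, beside -1.12 with it. Hmox1, the heme oxygenase gene, had 109.9, 119 and 176 CPM in chloroquine tumors and 138, 115 and 175 CPM in ADI-PEG20 tumors, nearly the same range.

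The Gclm window is shown because the drug groups lay apart for this gene and because it holds a match to the core letters of the antioxidant element. Capitals mark TGACNNNGC, which here lies on the other strand. Of 18 list members with a window 6 held this core, against 16.9% of all genes of the table with one.
Gclm (chr3:122245307-122245606, plus strand): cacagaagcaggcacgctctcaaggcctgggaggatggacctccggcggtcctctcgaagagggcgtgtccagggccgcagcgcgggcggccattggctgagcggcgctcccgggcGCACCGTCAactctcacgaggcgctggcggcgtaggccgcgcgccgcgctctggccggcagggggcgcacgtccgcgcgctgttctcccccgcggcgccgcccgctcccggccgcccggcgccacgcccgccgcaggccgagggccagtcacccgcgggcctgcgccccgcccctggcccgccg

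Among the 29 programs, cell division had the largest share of members higher with chloroquine. Of 24 genes of G2 and mitosis, 23 were above 0, where 50.5% of all genes were, with a median of 0.29. Of the 24, 3 lay apart above, where 3.78% of all genes did. Mean log2 CPM of the list was 5.33, 5.47 and 4.97 in chloroquine tumors and 4.63, 5.13 and 5.02 in ADI-PEG20 tumors, so chloroquine 3 overlapped with ADI-PEG20 2 and 3. The median was 0.18 without ADI-PEG20 1 and 0.43 without chloroquine 3. The untreated libraries, at 5.56, 5.18 and 5.04, spanned the chloroquine mean.

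Aurka, the mitotic kinase Aurora A, had 32.0, 32.4 and 31.7 CPM in chloroquine tumors, against 18.2, 26.4 and 22.9 CPM in ADI-PEG20 tumors, a difference of 0.53 (SE 0.17). The 3 chloroquine values differ by less than 1 CPM and lie above all ADI-PEG20 values. Cenpe, a kinetochore motor, had 83.7, 94.1 and 79.1 CPM in chloroquine tumors and 46.2, 83.7 and 59.5 CPM in ADI-PEG20 tumors, and its difference of 0.48 was 0.28 without ADI-PEG20 1. Mki67, the gene of the proliferation marker Ki-67, had 295, 258 and 172 CPM in chloroquine tumors and 171, 206 and 177 CPM in ADI-PEG20 tumors, with chloroquine 3 inside the ADI-PEG20 range. Plk1 had the largest difference of the 24 members.

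Among 21 genes of G1 and S phase, 13 were higher with chloroquine, with a median of 0.19, and 0.04 without ADI-PEG20 1. Ccne1, the gene of cyclin E1, which starts S phase, had 20.8, 18.9 and 18.0 CPM in chloroquine tumors, against 12.3, 14.7 and 12.1 CPM in ADI-PEG20 tumors, and lay apart by 0.56 (SE 0.19). Mcm2, a subunit of the replicative helicase, had 80.9, 89.4 and 56.2 CPM in chloroquine tumors and 74.0, 78.8 and 69.9 CPM in ADI-PEG20 tumors. Cdkn1a, the gene of the inhibitor p21, had 39.3, 55.4 and 57.5 CPM in chloroquine tumors and 41.1, 30.1 and 18.8 CPM in ADI-PEG20 tumors. The 17 p53 targets as a list had a median of 0.07, in a line that lacks Trp53.

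The windows of Plk1 and Aurka are shown because both genes lay apart and hold a match to TTTGAA, the letters of the cell cycle homology region, just after their starts, in capitals. It occurred on either strand in 14 of 19 mitosis list members with a window, against 14.6% of all genes of the table with one.
Plk1 (chr7:122159185-122159484, plus strand): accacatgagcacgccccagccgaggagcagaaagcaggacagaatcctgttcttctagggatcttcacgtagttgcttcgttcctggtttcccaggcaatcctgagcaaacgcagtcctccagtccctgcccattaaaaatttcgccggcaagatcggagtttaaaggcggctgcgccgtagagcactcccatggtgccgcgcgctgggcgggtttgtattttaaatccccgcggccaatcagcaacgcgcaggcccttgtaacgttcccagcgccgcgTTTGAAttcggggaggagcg
Aurka (chr2:172370521-172370820, minus strand): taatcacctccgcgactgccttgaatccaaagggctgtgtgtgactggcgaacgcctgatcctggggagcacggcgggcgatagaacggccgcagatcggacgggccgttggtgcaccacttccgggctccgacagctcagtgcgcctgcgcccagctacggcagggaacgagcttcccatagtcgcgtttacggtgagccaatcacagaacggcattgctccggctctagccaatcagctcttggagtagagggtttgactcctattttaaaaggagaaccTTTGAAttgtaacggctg

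**Figure D3:**
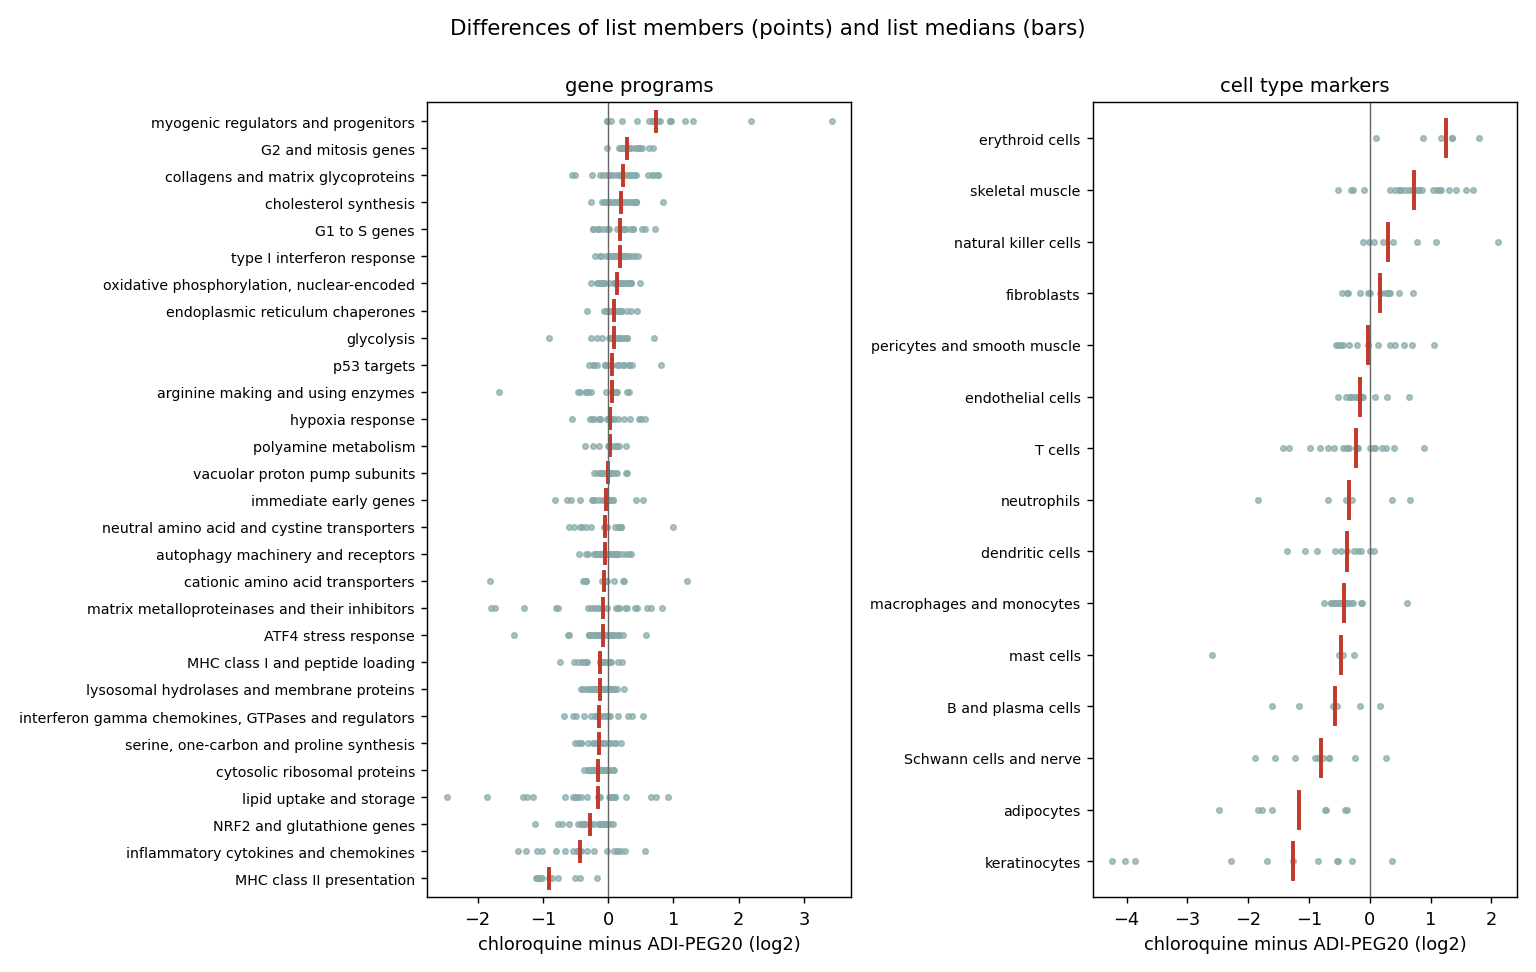
Chloroquine minus ADI-PEG20 differences on the log2 scale for every measured member (points) and the list median (bar) of 29 gene programs (left) and 15 cell type marker lists (right), ordered by median. All 11 MHC class II genes lie below 0 and 23 of 24 G2 and mitosis genes above it.

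Antigen presentation genes set chloroquine 3 apart from the other chloroquine libraries. In the means of the MHC class I and class II lists, the library numbered 3 was also the highest of each other group. All 11 measured genes of MHC class II presentation, by which antigen-presenting cells show peptides to helper T cells, were lower with chloroquine, with a median of -0.90. The list averaged 4.49, 4.56 and 5.91 on the log2 CPM scale in chloroquine tumors, against 5.72, 5.73 and 5.95 in ADI-PEG20 tumors and 4.2, 4.16 and 5.07 in untreated tumors. Tumors given both drugs had 5.279, 4.927 and 6.105. Chloroquine 3 was at the level of ADI-PEG20, and the other 2 chloroquine libraries more than 1 log2 unit below it. Without chloroquine 3 the median was -1.22. In bulk tissue, fewer cells of a type and less RNA per cell cannot be told apart, here and for every list that follows.

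H2-Aa, the alpha chain of the I-A molecule, had 69.0, 66.2 and 256 CPM in chloroquine tumors and 157, 242 and 297 CPM in ADI-PEG20 tumors. Its difference was -1.09 (SE 0.58, limma unadjusted p = 0.0798, adjusted p = 0.994), and -1.73 without chloroquine 3. Cd74, the invariant chain that escorts class II molecules, had 185, 195 and 794 CPM in chloroquine tumors and 515, 669 and 728 CPM in ADI-PEG20 tumors. Ciita, the master activator of class II genes, had 10.4, 9.32 and 36.3 CPM in chloroquine tumors and 31.3, 33.0 and 30.6 CPM in ADI-PEG20 tumors, so the same library was the high one in all 3 genes. Tumors given both drugs had 14.5, 13.4 and 34.7 CPM of Ciita, and untreated tumors 7.79, 9.94 and 13.6 CPM.

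The H2-Aa window shows the reversed CCAAT box, the Y box of class II genes, in capitals. CCAAT is common: it occurred on either strand in 6 of 8 class II members with a window and in 41.9% of all genes of the table with one.
H2-Aa (chr17:34287774-34288073, minus strand): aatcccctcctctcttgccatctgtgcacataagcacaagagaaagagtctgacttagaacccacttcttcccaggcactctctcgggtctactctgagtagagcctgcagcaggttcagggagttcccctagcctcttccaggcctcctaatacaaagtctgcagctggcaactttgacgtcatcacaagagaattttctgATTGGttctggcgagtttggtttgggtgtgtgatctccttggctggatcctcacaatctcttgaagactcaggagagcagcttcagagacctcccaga

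MHC class I and peptide loading genes had a median of -0.12 with 14 of 19 lower, and -0.49 without chloroquine 3 or -0.03 without chloroquine 1. Their levels were 5.75, 5.77 and 6.67 in chloroquine tumors and 6.27, 6.2 and 6.28 in ADI-PEG20 tumors on the log2 CPM scale. Interferon gamma chemokines, GTPases and regulators had a median of -0.14, which was 0.00105 without chloroquine 1, and Cxcl9, a chemokine that draws T cells, 27.7, 31.7 and 31.1 CPM in chloroquine tumors and 23.7, 19.4 and 31.6 CPM in ADI-PEG20 tumors. Type I interferon genes were higher with chloroquine in 26 of 30, with a median of 0.18, but the list reached 5.54, 5.47 and 6.17 in chloroquine tumors and 5.67, 5.64 and 5.39 in ADI-PEG20 tumors. Only chloroquine 3 lay above all ADI-PEG20 libraries, and the median without it was -0.05.

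Macrophage and monocyte markers were lower with chloroquine in 19 of 20, with a median of -0.42. Of the members, 5 lay apart, all below, where 3.73% of all genes did. The list averaged 5.33, 5.52 and 5.76 in chloroquine tumors, against 6.05, 5.78 and 5.96 in ADI-PEG20 tumors and 5.21, 5.45 and 5.54 in untreated tumors, on the log2 CPM scale. The drug groups did not overlap, and chloroquine 3 lay just below ADI-PEG20 2. C1qc, a complement subunit made by macrophages, had 192, 206 and 239 CPM in chloroquine tumors, against 396, 253 and 323 CPM in ADI-PEG20 tumors. Tyrobp, a signalling adaptor of myeloid and natural killer cells, had 19, 26.9 and 27.3 CPM in chloroquine tumors, against 33.8, 33.1 and 40.9 CPM in ADI-PEG20 tumors. The differences were -0.59 (SE 0.18) and -0.57 (SE 0.18). Csf1r, the receptor that macrophages need to survive, had 165, 182 and 255 CPM in chloroquine tumors and 259, 229 and 304 CPM in ADI-PEG20 tumors, overlapping through chloroquine 3. Adgre1, the F4/80 gene, had 51.2, 67.6 and 69.5 CPM in chloroquine tumors and 71.2, 56.1 and 79.1 CPM in ADI-PEG20 tumors.

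Inflammatory cytokines and chemokines had a median of -0.43, with 15 of 21 lower with chloroquine. Of the members, 4 lay apart, all below, where 3.73% of all genes did. Without chloroquine 1 the median was -0.226. Tnf, the gene of tumor necrosis factor, had 1.28, 1.49 and 1.66 CPM in chloroquine tumors, against 3.10, 3.10 and 2.83 CPM in ADI-PEG20 tumors. Ccl7, a monocyte attractant, had 9.24, 10.7 and 9.15 CPM in chloroquine tumors, against 16.7, 12.6 and 13.1 CPM in ADI-PEG20 tumors. Csf1, the macrophage growth factor, had 131, 159 and 198 CPM in chloroquine tumors and 229, 224 and 192 CPM in ADI-PEG20 tumors, the highest chloroquine library lying just above the lowest ADI-PEG20 one. The differences were -1.02 (SE 0.44), -0.54 (SE 0.23) and -0.42 (SE 0.16).

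Markers of dendritic cells and T cells were scarce. Dendritic cell markers had a median of -0.38 and averaged 1.88, 1.66 and 3.07 in chloroquine tumors and 2.78, 2.6 and 2.66 in ADI-PEG20 tumors on the log2 CPM scale. T cell markers had a median of -0.23 with levels of 0.70, 0.39 and 1.84 in chloroquine tumors and 1.39, 1.28 and 1.15 in ADI-PEG20 tumors. In both lists chloroquine 3 was the highest of the 6, and without it the medians were -0.89 and -0.68. Cd8a, of cytotoxic T cells, had 1.28, 1.30 and 5.48 CPM in chloroquine tumors and 2.86, 2.81 and 2.35 CPM in ADI-PEG20 tumors. Cd22, an inhibitory receptor gene of B cells, had 3.63, 2.42 and 4.60 CPM in chloroquine tumors, against 10.5, 5.88 and 7.36 CPM in ADI-PEG20 tumors, and lay apart.

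**Figure D4:**
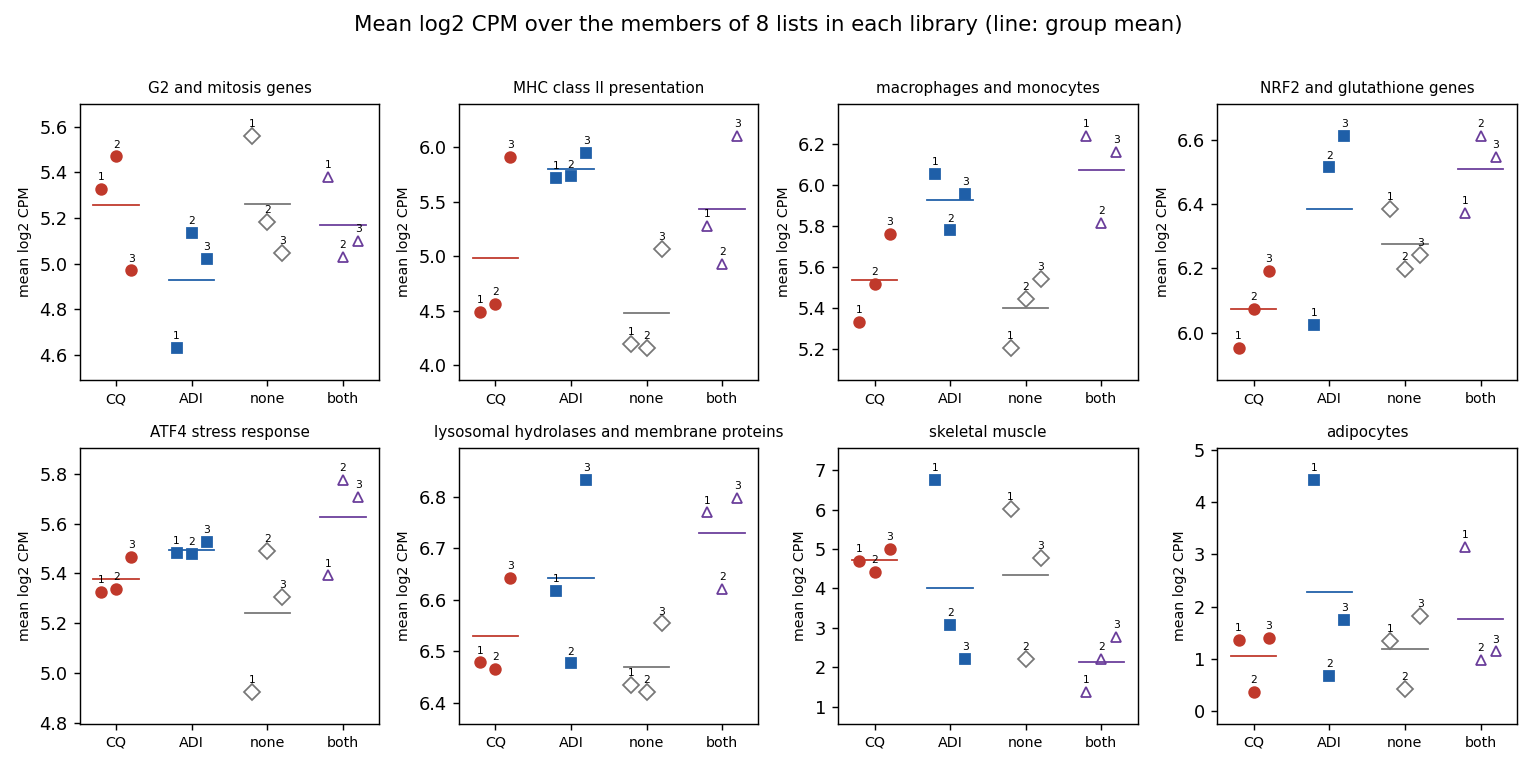
Mean log2 CPM over the members of 8 lists in each library, with chloroquine (CQ), ADI-PEG20 (ADI), untreated (none) and the combination (both) from left to right, replicate numbers beside the points and lines at the group means. Chloroquine 3 sits at the ADI-PEG20 level for MHC class II presentation, and ADI-PEG20 1 is the highest library for skeletal muscle and adipocytes.

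Muscle and fat markers varied between libraries of 1 drug more than between the drugs. Skeletal muscle markers averaged 4.71, 4.43 and 5.0 on the log2 CPM scale in chloroquine tumors and 6.76, 3.08 and 2.21 in ADI-PEG20 tumors, so ADI-PEG20 1 was the highest and the other 2 the lowest of the 6. The list median was 0.73, with 20 of 24 members higher. It was 2.14 without ADI-PEG20 1 and -0.0897 without ADI-PEG20 3. Acta1, the skeletal muscle actin, had 464, 498 and 248 CPM in chloroquine tumors and 669, 94.8 and 26.5 CPM in ADI-PEG20 tumors. Ckm, the muscle creatine kinase, had 4.11, 1.49 and 3.43 CPM in chloroquine tumors and 80.2, 0.384 and 0.218 CPM in ADI-PEG20 tumors, again with 1 library far above the rest. Whether these transcripts came from tumor cells or from host muscle was not tested.

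Regulators and progenitor genes of the myogenic program were higher with chloroquine in 16 of 18, with a median of 0.73. Of the members, 4 lay apart above, where 3.78% of all genes did. Levels of the list were 5.65, 5.42 and 4.99 in chloroquine tumors, against 4.78, 4.68 and 3.97 in ADI-PEG20 tumors, and 4.08, 4.5 and 5.21 in untreated tumors, on the log2 CPM scale. The drug groups did not overlap, and untreated libraries fell in both ranges. Myog, the gene of myogenin, had 42.2, 25.4 and 11.3 CPM in chloroquine tumors and 18.0, 13.5 and 4.31 CPM in ADI-PEG20 tumors. Chrna1, the acetylcholine receptor subunit of muscle, had 137, 102 and 79.2 CPM in chloroquine tumors and 55.4, 86.4 and 43.6 CPM in ADI-PEG20 tumors. Fgfr4, a growth factor receptor of myogenic cells, had 11.6, 1.30 and 1.52 CPM in chloroquine tumors, against 0, 0.863 and 0.522 CPM in ADI-PEG20 tumors. Chloroquine 1 was far above the other libraries, and ADI-PEG20 1 had no Fgfr4 read.

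Adipocyte markers were lower with chloroquine in all 8 measured, with a median of -1.17, but 1.36, 0.37 and 1.4 in chloroquine tumors and 4.43, 0.68 and 1.75 in ADI-PEG20 tumors show that ADI-PEG20 1 alone stood above. Without it the median was -0.06. Plin1, which coats the lipid droplets of fat cells, had 0.534, 0.186 and 1.08 CPM in chloroquine tumors and 22.7, 0.767 and 1.22 CPM in ADI-PEG20 tumors. The part of such fat in Lpl and Scd1 was not tested, and the Lpl difference without ADI-PEG20 1 was -1.64.

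Lipid uptake and storage genes split, with 10 higher and 15 lower with chloroquine and a median of -0.15, or -0.0844 without ADI-PEG20 1. Scd1, the stearoyl-CoA desaturase, had 52.4, 55.0 and 71.5 CPM in chloroquine tumors, against 326, 108 and 87.1 CPM in ADI-PEG20 tumors, where ADI-PEG20 1 stood highest. The difference was -1.3 (SE 0.43) and -0.71 without that library. Fabp5, a fatty acid carrier, ran the other way, with 29.6, 43.1 and 21.9 CPM in chloroquine tumors, against 16.2, 20.7 and 18.2 CPM in ADI-PEG20 tumors. Lpin3, a phosphatidate phosphatase gene, had 54.6, 48.9 and 48.0 CPM in chloroquine tumors, against 43.4, 32.9 and 23.1 CPM in ADI-PEG20 tumors.

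Collagens and matrix glycoproteins were higher with chloroquine in 21 of 27, with a median of 0.22. Of the members, 2 lay apart above, where 3.78% of all genes did. The median was 0.0206 without ADI-PEG20 2 and 0.44 without both ADI-PEG20 1 and chloroquine 3. Lum, the collagen-binding proteoglycan lumican, had 88.8, 78.3 and 50.6 CPM in chloroquine tumors, against 49.6, 43.5 and 37.7 CPM in ADI-PEG20 tumors. Among metalloproteinases, which cut matrix, the secreted stromelysins were lower with chloroquine. Mmp3 had 9.24, 17.2 and 24.0 CPM in chloroquine tumors, against 39.3, 24.8 and 57.5 CPM in ADI-PEG20 tumors, and Mmp10 1.17, 3.31 and 3.52 CPM against 3.73, 10.2 and 13.5 CPM. The membrane-bound Mmp15 was higher, with 108, 85.6 and 69.7 CPM in chloroquine tumors, against 62.2, 52.8 and 34.9 CPM in ADI-PEG20 tumors. All 3 lay apart, by -1.29 (SE 0.48), -1.74 (SE 0.64) and 0.83 (SE 0.23). The list of metalloproteinases and their inhibitors had 10 of 23 members higher and 13 lower with chloroquine, with a median of -0.07. Of the 23, 3 lay apart above and 2 below, where 3.78% and 3.73% of all genes did. Untreated tumors had 27.5, 25.6 and 7.84 CPM of Mmp10, 2 of them above every library of either drug.

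Of the metabolic programs, cholesterol synthesis had a median of 0.20 with 20 of 25 higher with chloroquine, and -0.04 without ADI-PEG20 1 or -0.00394 without chloroquine 2. Oxidative phosphorylation had 24 of 33 higher, a median of 0.14, and -0.00265 without ADI-PEG20 1. Hypoxia response genes as a list had a median of 0.03, but 3 of 19 members lay apart above, where 3.78% of all genes did. The stress-responsive Ndrg1 had 178, 226 and 269 CPM in chloroquine tumors, against 154, 176 and 143 CPM in ADI-PEG20 tumors. P4ha2, a collagen prolyl hydroxylase, had 73.7, 86.7 and 80.6 CPM in chloroquine tumors, against 52.6, 54.7 and 67.4 CPM in ADI-PEG20 tumors. Kdm3a, a histone demethylase, had 58.8, 66.7 and 70.9 CPM in chloroquine tumors, against 34.2, 53.4 and 46.8 CPM in ADI-PEG20 tumors. Untreated tumors had 349, 316 and 238 CPM of Ndrg1, overlapping with chloroquine. Cytosolic ribosomal protein genes were lower with chloroquine in 30 of 33, and 6 lay apart below, where 3.73% of all genes did. The list had a median of -0.15. That median was -0.0538 without chloroquine 3 and -0.255 without ADI-PEG20 1. Rps19 had 109, 115 and 89.6 CPM in chloroquine tumors, against 129, 130.0 and 143 CPM in ADI-PEG20 tumors.

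The deposited KEGG sets gave a wider view of pathways. Of 246 sets, 220 had at least 15 genes in the table, and the median difference of a set ran from -0.55 to 0.17. It was above 0 in 79 sets and below 0 in 141. These counts depend on the scaling, and they were not made under other scalings. With total reads as library size the median of all genes was 0.0568, beside 0.00327 in the fit reported. Median-centring moved the median of the animal autophagy set from -0.0144 to 0.00116. The set with the lowest median was metabolism of xenobiotics by cytochrome P450, with 28 of 33 genes lower with chloroquine. Next came drug metabolism by cytochrome P450 with 26 of 31 lower, the intestinal immune network for IgA production with 21 of 28, hematopoietic cell lineage with 56 of 71, viral protein interaction with cytokines with 42 of 55, and steroid hormone biosynthesis with 17 of 20. The 2 P450 sets share 25 genes, 13 of them glutathione transferases, and the 2 leukocyte sets share 9, 7 of them H2 genes of the MHC. DNA replication and mismatch repair share 15. At the other end stood terpenoid backbone biosynthesis, butanoate metabolism, protein export, DNA replication, mismatch repair, and alanine, aspartate and glutamate metabolism, with medians from 0.14 to 0.17. DNA replication had 26 of 35 genes higher with chloroquine and protein export 22 of 25. Without ADI-PEG20 1 the median was 0.000681 for terpenoid backbone biosynthesis, 0.0343 for DNA replication, 0.0313 for alanine, aspartate and glutamate metabolism, -0.003 for protein export and -0.00916 for mismatch repair. Without ADI-PEG20 3 the median of xenobiotic metabolism was -0.207, beside -0.55 with it.

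For the set of hematopoietic cell lineage, the authors' deposited table of set statistics against untreated tumors gives 0.813 for chloroquine (adjusted p 0.989) and 5.05 for ADI-PEG20 (adjusted p 5.78e-05). For the intestinal immune network, the authors' deposited table gives 1.10 for chloroquine (adjusted p 0.989) and 4.10 for ADI-PEG20 (adjusted p 0.00289). Both columns share the untreated libraries, and a set past the threshold for 1 drug and not the other does not show that the drugs differ there.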

How the data were processed

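RNA from frozen BVMA01R tumors was depleted of ribosomal RNA and sequenced, per the labels' protocols. Per the submitters' processing notes, the tools included limma and edgeR, Salmon 0.8.2, featureCounts 1.4.6-p5 of Subread, STAR 2.5.1a and bcl2fastq, with the build mm10, and neither role nor order is given. The authors deposited log2 CPM for 16386 lines, and the earliest line of each of 16335 distinct genes was kept, dropping 51 repeats. From the deposited log2 values the worth of 1 read in each library was worked out: 100% of values under 2000 reads came within 0.02 of a whole number, which gave the read totals and CPM. The lowest total over the 12 libraries was 85 reads, and no filter on low values was added. Per the file headers, the table also holds the authors' log2 fold changes, a signed fold (a score), and each p-value with its adjusted p-value. The authors deposited a score per KEGG set, which is used here only where the authors' table is named. These p-values and scores are the authors' own.

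Chloroquine minus ADI-PEG20 was estimated on log2 CPM with limma 3.58.1 (R 4.3.3), with all 12 libraries in 1 fit, 4 groups, no covariate, an expression trend and Benjamini-Hochberg adjustment over 16335 genes at 0.05, two-sided. The script was tested on simulated data. Intervals of counting error were not computed, and the precision given is the spread between libraries.

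Members, gene lists and tests were chosen with earlier results of these data known. The lists are 29 programs, 15 cell types and 1 of RNA quality and library composition, with 833 of 898 genes in the table. Genes named in the text were drawn from a selection, of which not all are written out. The selection held the 12 higher and 12 lower with the smallest p, and the genes marked as anchors in each list, which were not ranked by p. It also held the 3 members of each list with the smallest p, Ass1 and Trp53. The KEGG sets named are the 6 with the highest and the 6 with the lowest median. Replicate numbers were not used as pairs. Gene positions are from GENCODE M21 (GRCm38) by gene identifier. Promoter windows are from RefSeq (GRCm38.p6), matched by symbol. Windows were found for 26 of 32 ATF4, 18 of 22 NRF2, 19 of 24 mitosis and 8 of 11 class II genes. Alternatives were other scalings, weights, filters and left-out libraries.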

Additional observations from a re-analysis of the deposited data

How the results depend on the processing

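No gene passed an adjusted p of 0.05 in any of the 18 other fits, and no gene difference printed in the report turned its sign in any of them. The count at an unadjusted p under 0.05, 604 in the fit reported, was 1224 with library quality weights, 1161 with voom and library quality weights (added after seeing the data) and 1161 without both ADI-PEG20 1 and chloroquine 3. Leaving out 1 library at a time gave 315 (without chloroquine 1) to 1201 (without ADI-PEG20 2), with 342 without chloroquine 2 and 1089 without chloroquine 3. With the replicate block the count was 747, with 0 genes passing and a smallest adjusted p of 0.225. Same-numbered libraries of the 2 drugs had correlations of their deviations from the group means of 0.125, 0.199 and 0.024. Libraries of different number had -0.213 to 0.103. The numbers were not taken as pairs, and whether same-numbered libraries belong together was not tested. Median-centring split the unadjusted calls into 294 higher and 301 lower, and total reads as library size into 251 and 231, where the fit reported had 262 and 342. Total reads also moved the median of all genes to 0.0568.

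The medians below moved by more than the spread between libraries in at least 1 fit. With 1 library left out at a time they ran from -0.21 to 0.0133 for neutral amino acid and cystine transporters, -0.103 to 0.0727 for arginine making and using enzymes, 0.0128 to 0.239 for endoplasmic reticulum chaperones, -0.493 to -0.03 for MHC class I and peptide loading, -0.0303 to 0.133 for polyamine metabolism, 0.543 to 1 for myogenic regulators and progenitors, -0.901 to -0.314 for mast cells, 0.499 to 1.91 for erythroid cells, -1.65 to -0.432 for Schwann cells and nerve, -0.27 to 0.0584 for RNA quality and library composition, -0.615 to -0.207 for Metabolism of xenobiotics by cytochrome P450, 0.0313 to 0.13 for Alanine, aspartate and glutamate metabolism and 0.112 to 0.261 for Butanoate metabolism.
Without both ADI-PEG20 1 and chloroquine 3, the moved medians were -0.191 for neutral amino acid and cystine transporters, 1.26 for myogenic regulators and progenitors, -1.1 for mast cells and 2.4 for erythroid cells. In at least 1 fit, 19 of the 45 list medians and 2 of the 12 named KEGG medians turned their sign. Leaving out 1 library moved 41 of the 45 and 11 of the 12 by over 1.5 times, the exceptions being MHC class II presentation, macrophages and monocytes, keratinocytes, myogenic regulators and progenitors, and hematopoietic cell lineage. The cause of these shifts was not tested. Genes with few reads, such as Il23r, Lnx1, Fgfr4 and Plin1, are limited by depth.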

Other observations

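Some marker lists not described above varied widely between libraries of the same drug. Erythroid markers were higher with chloroquine in all 6 measured, with a median of 1.26. Their levels on the log2 CPM scale were 2.32, 3.96 and 1.55 in chloroquine tumors, against 2.47, 1.19 and 0.85 in ADI-PEG20 tumors, which overlap. Hba-a1, an alpha globin with a near-identical copy, had 17.5, 40.5 and 8.57 CPM in chloroquine tumors and 19.6, 5.43 and 9.05 CPM in ADI-PEG20 tumors. Keratinocyte markers were lower in 10 of 11, with a median of -1.26. Krt14, a keratin of basal epidermis, had 18.2, 3.78 and 18.6 CPM in chloroquine tumors, against 32.5, 22 and 24.6 CPM in ADI-PEG20 tumors, and Krt5, its partner, had no read in 2 chloroquine libraries. Schwann cell markers had a median of -0.81, and Pmp22, a myelin protein gene, had 34.5, 31.1 and 34.3 CPM in chloroquine tumors, against 56.9, 38.9 and 67.0 CPM in ADI-PEG20 tumors, without overlap.

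Stromal lists had small medians. Endothelial markers had a median of -0.16 with 15 of 18 lower with chloroquine, and of -0.0171 without ADI-PEG20 3. Pericytes and smooth muscle had -0.03, and fibroblasts 0.17, which was -0.163 without ADI-PEG20 2. Natural killer markers had a median of 0.30 over 8 genes, neutrophil markers -0.34 over 6, with signs turning to -0.304 for natural killer markers without both ADI-PEG20 1 and chloroquine 3 and to 0.101 for neutrophil markers without chloroquine 1. Mast cell markers had a median of -0.47 over 4. B and plasma cell markers had -0.57 over 6. Endoplasmic reticulum chaperones had a median of 0.10, and Pdia4, a disulfide isomerase of that list, had 121, 129.8 and 124 CPM in chloroquine tumors, against 89.0, 85.5 and 101 CPM in ADI-PEG20 tumors. Glycolysis genes had 0.10, polyamine metabolism 0.02 and immediate early genes -0.03. The list of RNA quality and library composition had -0.06.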
